A study of Mus musculus with 6 samples.

Results

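The complement genes described here are 37 genes of the complement system, chosen by symbol to cover its activation arms, its lytic end stage, its regulators and its receptors. Of these, 34 were measured, each by 1 probe set that the platform annotation gives a single symbol, among 22180 genes in all. C3, the central component, and Cfd, the protease of the alternative arm, had no such probe set, and Masp2, a protease of the lectin arm, was named only together with another gene on its probe set, so these 3 are not analysed here. Complement is a cascade of plasma and cell-surface proteins that marks targets, draws in phagocytes and can pierce membranes. The classical arm starts with C1q binding, the lectin arm with sugar-binding proteins and the alternative arm with spontaneous turnover of C3, and all lead to the membrane attack complex. In the outer eye the system is known above all for its part in age-related macular degeneration, in which complement proteins are found in deposits beneath the retinal pigment epithelium (RPE), and in brain C1q and C3 are made around amyloid plaques by glia.

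The tissue was the joined RPE, choroid and sclera, from mice 12 months old. The 3 samples of the 5XFAD group were labelled as heterozygous for the transgene, and the 3 wild-type samples as non-transgenic littermates. In 5XFAD mice the neuron-directed Thy1 promoter drives transgenes with familial Alzheimer's disease mutations, human APP among them, so the transgenes are not aimed at the cells of this tissue. No treatment was given, and precision is limited by having 3 samples in each group, with 1 array for each sample. Whether the samples are separate animals is not said in the labels, so the p-values rest on a spread that may in part be technical.

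Values are log2 intensities normalised by robust multi-array averaging. Array medians lay between 5.59 and 5.71. Markers of the labelled tissue stood clear of the dim end of the scale, which was described by 1108 probe sets of olfactory receptors, genes with no known place in this tissue. The 95th percentile of their means over 6 arrays was 5.57, and 18 of 19 RPE genes, 14 of 15 fibroblast and sclera genes and 13 of 13 endothelial genes lay above it. Among marker lists with over 1 measured gene, the means of 2 did not overlap between the genotypes. The mean of the 19 RPE genes was 10.19, 10.20 and 10.21 in 5XFAD samples, against 10.36, 10.51 and 10.35 in wild-type samples, lower in every 5XFAD array, and 13 of the 19 were under an unadjusted p of 0.05 in limma with 0 passing after adjustment. The mean of 14 surface epithelium genes was 6.73, 7.06 and 7.37 in 5XFAD samples, against 5.86, 5.94 and 5.86 in wild-type samples, higher in every 5XFAD array, and 4 of them passed in limma after adjustment. The part of the RPE list in the complement values was not tested, and the surface epithelium list was tried as a covariate. Bulk RNA was measured throughout, so fewer cells of a type and less RNA per cell cannot be told apart. Probe sets differ in affinity, so levels are compared between samples and not between genes.

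None of the 34 complement genes passed the test between 5XFAD and wild type. The count was 0 (limma, Benjamini-Hochberg adjusted p at a threshold of 0.05 over all genes, lowest 0.76, for Cr1l), where 0.0225% of all genes passed. At an unadjusted p under 0.05 limma gave 1 complement gene, which was higher in 5XFAD, where 6.28% of all genes met that limit and 2.89% did so as higher. The groups were fully apart in 2 complement genes, both higher in 5XFAD, where 11.3% of all genes had groups apart, 4.72% as higher and 6.62% as lower. Differences ran from -0.39 for C9 to 0.31 for C1qb on the log2 scale (5XFAD minus wild type), with a median of 0.07 beside -0.01 over all genes. A total of 19 differences were positive and 15 negative, where 47.2% of all genes had a positive one. Classical components, membrane regulators and the receptors for C3a and C5a lay mostly above the olfactory receptor range, and lectin and terminal components mostly within it.

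**Figure D1:**
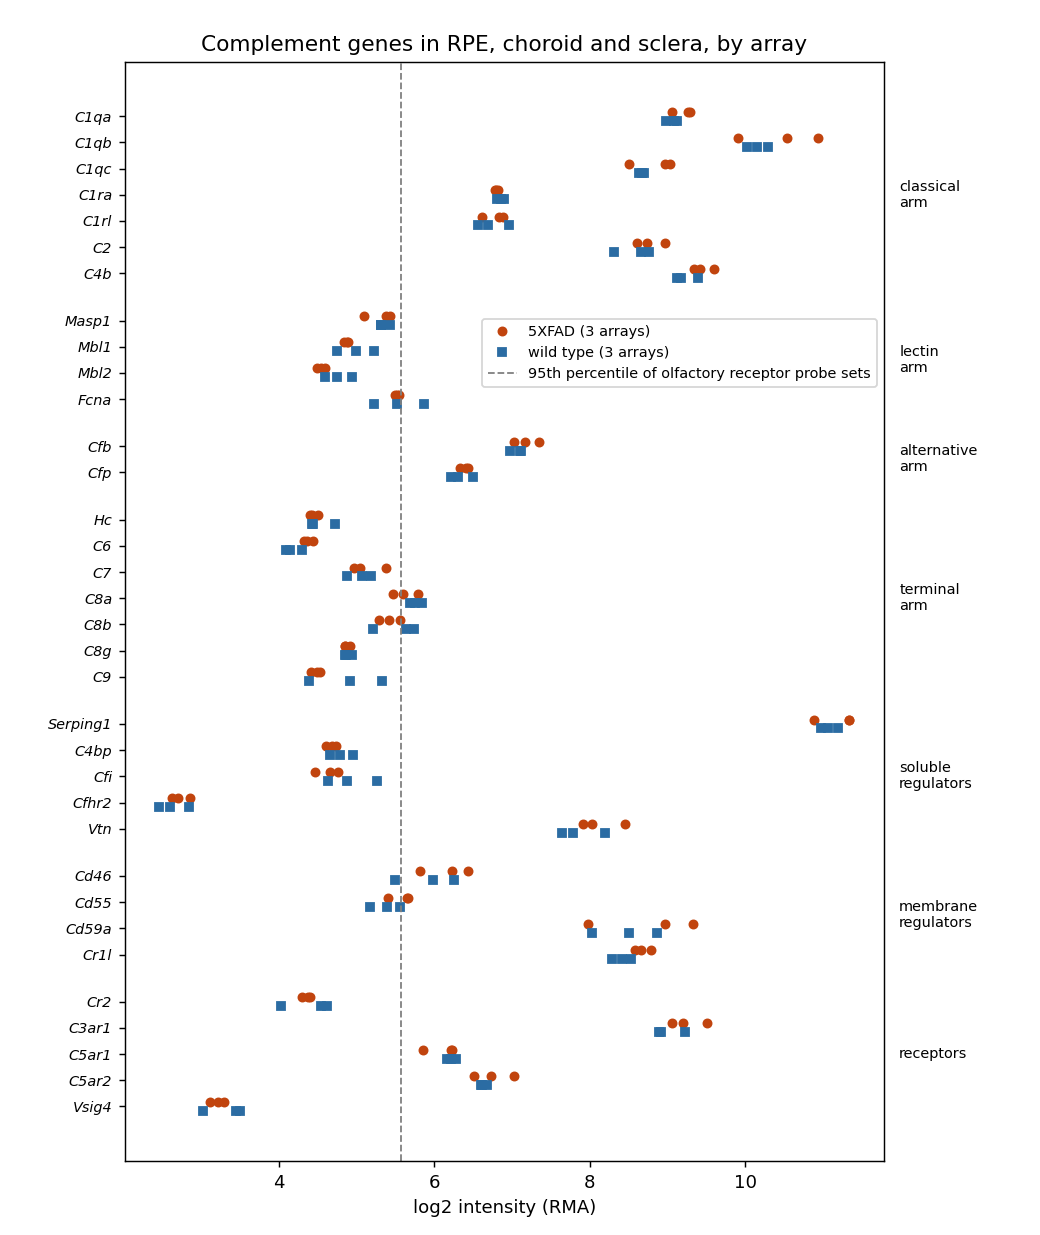
Log2 intensity (horizontal axis) of the 34 measured complement genes, grouped by arm, with 1 point per array for 5XFAD (circles, upper row of each gene) and wild type (squares, lower row). The dashed line is the 95th percentile of olfactory receptor probe sets at 5.57, and the groups overlap in all genes but C6 and Cr1l.

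Split at the olfactory receptor range, 18 complement genes lay above it and 16 within it. Of the 18, 15 had a positive and 3 a negative difference, with a median of 0.15, while 50.2% of all genes above the range had a positive one. Of the 16, 4 were positive and 12 negative, with a median of -0.07, while 43.0% of all genes within the range were positive. With the mean of a macrophage list as a covariate the split of the brighter genes was 11 to 7, with a median of 0.05, and with that of a skeletal muscle list it was 12 to 6, with a median of 0.06. With that of the surface epithelium list, whose means were apart between the groups, it was 15 to 3, with a median of 0.42. With each array left out in turn their median ran from 0.10 without 5XFAD replicate 2 to 0.23 without 5XFAD replicate 3. Leaving out single arrays changed the sign or moved the difference by over 1.5 times in 31 of the 34 complement genes, and the other 3 were C4b, C6 and Cr1l.

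**Figure D2:**
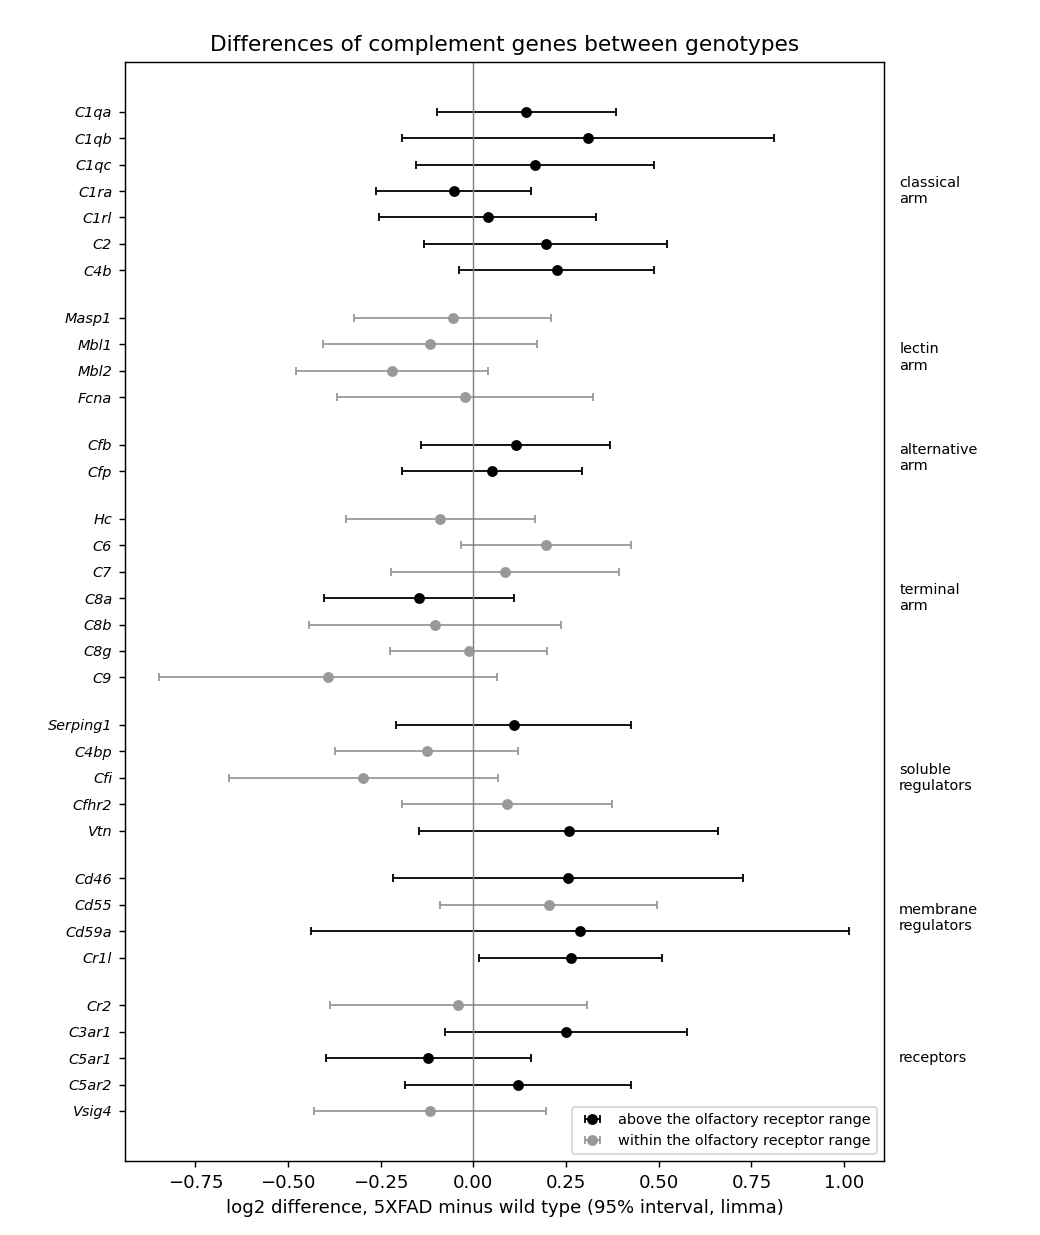
Log2 difference, 5XFAD minus wild type, of each complement gene with its 95% interval from limma, in black for genes above the olfactory receptor range and in grey for genes within it. Only the interval of Cr1l, from 0.02 to 0.51, leaves out 0, before any adjustment for the number of genes.

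C1q, the recognition molecule of the classical arm, is built from 3 chains encoded by the neighbouring genes C1qa, C1qb and C1qc, and in tissues it is made mainly by macrophages and microglia. C1qb signal was 10.94, 10.53 and 9.92 in 5XFAD replicates 1, 2 and 3, against 10.29, 10.16 and 10.02 in wild-type replicates 1, 2 and 3. C1qc signal was 9.04, 8.96 and 8.51 in 5XFAD samples, against 8.67, 8.64 and 8.70 in wild-type samples. C1qa signal was 9.29, 9.27 and 9.06 in 5XFAD samples, against 8.98, 9.09 and 9.13 in wild-type samples. For all 3 chains the 5XFAD replicates 1 and 2 lay above every wild-type sample and 5XFAD replicate 3 did not, so the groups overlapped. For C1qb and C1qc that replicate was the lowest of the 6 arrays.

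The log2 difference of C1qb was 0.31 ± 0.22 (± SE, as for all differences below; limma, Benjamini-Hochberg adjusted p = 0.92), with a 95% interval from -0.19 to 0.81. Those of C1qa and C1qc were 0.14 ± 0.11 and 0.17 ± 0.14 (limma, Benjamini-Hochberg adjusted p = 0.92 and 0.93). The intervals allow a change in either direction. Single arrays moved the C1qb value, to 0.07 without 5XFAD replicate 1 and to 0.58 without 5XFAD replicate 3, with no call in either case (limma, Benjamini-Hochberg adjusted p = 0.99 and 0.52). The mean of the 19 measured macrophage and microglia genes, a list that holds no complement gene described here, was 8.57, 8.41 and 8.29 in 5XFAD samples, against 8.34, 8.30 and 8.33 in wild-type samples. It was highest in 5XFAD replicate 1 and lowest in 5XFAD replicate 3, as were C1qb and C1qc. Of the macrophage genes, 18 lay above the olfactory receptor range. Over all 19, 15 had a positive difference, where 47.2% of all genes and 50.2% of all genes above that range did. In limma 0 passed after adjustment and 4 were under an unadjusted p of 0.05, where 6.28% of all genes were. The groups were apart in 3 as higher (Fcer1g, Ctss and Gpnmb) and in 2 as lower (Csf1r and Lyve1). Of all genes, 4.72% were apart as higher and 6.62% as lower. With the list mean as a covariate the difference was -0.03 ± 0.14 for C1qb, -0.005 ± 0.13 for C1qc and 0.07 ± 0.12 for C1qa. The skeletal muscle list was also highest in 5XFAD replicate 1. Its mean was 7.57, 6.86 and 6.34 in 5XFAD samples, against 5.82, 5.94 and 6.87 in wild-type samples. With that mean as a covariate the difference was 0.06 ± 0.26 for C1qb, -0.006 ± 0.16 for C1qc and 0.04 ± 0.13 for C1qa. The differences were thus smaller with either list, and these fits do not tell the lists apart. With the surface epithelium list, whose means were apart between the groups, they were larger, at 2.15 ± 0.39, 1.13 ± 0.36 and 0.54 ± 0.35. The part of either cell mixture in the C1q values was not tested further.

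**Figure D3:**
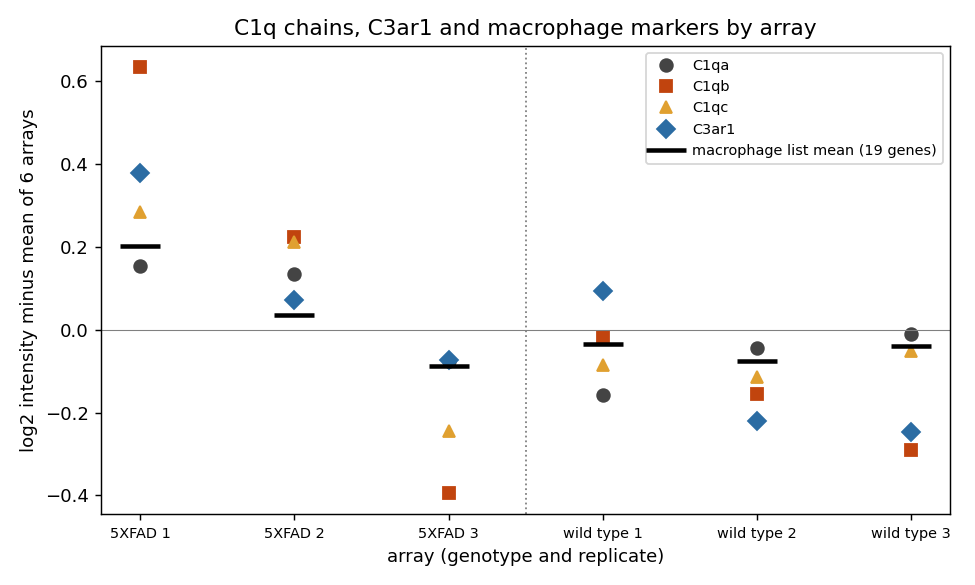
Log2 intensity minus the mean of 6 arrays (vertical axis) for C1qa, C1qb, C1qc and C3ar1, with the mean of 19 macrophage and microglia genes as a bar, in each array (horizontal axis). C1qa, C1qb, C1qc, C3ar1 and the macrophage mean are highest in 5XFAD replicate 1.

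The C1q genes are shown with the stretches before their starts because they lie side by side. The choice also rested on their signals running in the same order over the 3 5XFAD arrays. Over the wild-type arrays they did not run in the same order, and the neighbouring C5ar1 and C5ar2 shared an order over the 5XFAD arrays too. Both sequences are the 250 bases before the annotated start, 5′ to 3′ on the gene's strand, from RefSeq on GRCm38.p6. Capitals mark GAGGAA or its reverse complement, the core letters of sites for PU.1, an ETS factor of myeloid cells. The C1qb stretch is chr4:136886201-136886450 on the minus strand and the C1qc stretch is chr4:136892915-136893164 on the minus strand. C1qa is named only.
C1qb: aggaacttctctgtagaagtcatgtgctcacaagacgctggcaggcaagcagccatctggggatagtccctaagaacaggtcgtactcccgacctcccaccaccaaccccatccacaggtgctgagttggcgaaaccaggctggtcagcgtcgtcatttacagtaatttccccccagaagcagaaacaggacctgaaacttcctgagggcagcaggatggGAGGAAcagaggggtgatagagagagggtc
C1qc: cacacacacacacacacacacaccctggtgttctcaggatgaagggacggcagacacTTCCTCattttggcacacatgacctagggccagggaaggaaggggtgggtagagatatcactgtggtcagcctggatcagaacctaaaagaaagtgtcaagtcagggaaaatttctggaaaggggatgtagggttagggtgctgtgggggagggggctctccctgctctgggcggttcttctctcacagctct
The letters stood on the gene's strand at position -30 in C1qb and on the opposite strand at position -193 in C1qc, counting the base before the start as -1 and giving the leftmost base of the match. Searched on both strands, they were present in 23.3% of all 32851 stretches of this length and in those of 6 of the 27 measured complement genes that had one. A match of this kind is a description of the letters, and the share among complement genes, 22.2%, was close to that of all stretches.

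The proteases and substrates that follow C1q did not pass the test either. C4b, the component cleaved to start the C3 convertase, had signals of 9.34, 9.42 and 9.60 in 5XFAD samples, against 9.17, 9.39 and 9.12 in wild-type samples. The lowest 5XFAD sample lay below the highest wild-type sample, and the difference was 0.22 ± 0.12 (limma, Benjamini-Hochberg adjusted p = 0.86). C4a, a close copy of C4b, was at 4.37 ± 0.13 in 5XFAD and 4.36 ± 0.12 in wild type (mean ± SD, n = 3 each, as for all means below). C2, which forms the convertase with C4, differed by 0.19 ± 0.14, C1ra, the C1r protease, by -0.05 ± 0.09 and the related C1rl by 0.04 ± 0.13. C1ra had the narrowest spread of the 18 brighter genes, 0.12 between its highest and lowest array, and its near copy C1rb differed by -0.09. The median over the 7 classical genes was 0.17, with 6 positive and 1 negative.

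In the lectin arm all 4 measured genes lay within the olfactory receptor range, where background compresses differences. Fcna, the ficolin of plasma and macrophages, had signals of 5.54, 5.52 and 5.49 in 5XFAD samples, against 5.52, 5.22 and 5.87 in wild-type samples. The 5XFAD samples lay inside the wild-type spread, and the difference was -0.02 ± 0.15 (limma, Benjamini-Hochberg adjusted p = 0.99). The mannose-binding lectin genes Mbl1 and Mbl2 differed by -0.12 ± 0.13 and -0.22 ± 0.11, and the protease gene Masp1 by -0.06 ± 0.12. All 4 differences were negative, with a median of -0.09.

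Of the alternative arm, Cfb and Cfp were measured. Cfb, the protease component of the alternative convertase and a neighbour of C2 in the genome, had signals of 7.16, 7.35 and 7.02 in 5XFAD samples, against 6.98, 7.11 and 7.11 in wild-type samples. The groups overlapped, with a difference of 0.11 ± 0.11 (limma, Benjamini-Hochberg adjusted p = 0.94). Cfp, encoding properdin, which stabilises that convertase and is made by myeloid cells, was at 6.39 ± 0.06 in 5XFAD and 6.34 ± 0.14 in wild type.

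The terminal genes encode the parts of the membrane attack complex, and 6 of the 7 lay within the olfactory receptor range. C6 was the only one whose groups did not overlap, at 4.32, 4.43 and 4.35 in 5XFAD samples, against 4.08, 4.14 and 4.29 in wild-type samples. Its difference of 0.20 ± 0.10 did not pass (limma, Benjamini-Hochberg adjusted p = 0.86). C8a, the one gene above the range, was at 5.79, 5.60 and 5.46 in 5XFAD samples, against 5.84, 5.75 and 5.69 in wild-type samples, which overlap. Its difference was -0.15 ± 0.11 and that of its neighbour C8b -0.10 ± 0.15. C7, C8g and Hc, which encodes C5, differed by 0.09 ± 0.14, -0.01 ± 0.09 and -0.09 ± 0.11.

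C9, the pore-forming component, had the most negative difference of all 34 genes, -0.39 ± 0.20 (limma, Benjamini-Hochberg adjusted p = 0.86). Its signal was 4.53, 4.41 and 4.49 in 5XFAD samples, against 4.38, 5.32 and 4.91 in wild-type samples. Wild-type replicate 2 was the highest array, and the difference was -0.17 without it and -0.64 without wild-type replicate 1. Cfi, the soluble protease that inactivates C3b and C4b, was also highest in that array, at 4.75, 4.46 and 4.65 in 5XFAD samples, against 4.87, 5.26 and 4.63 in wild-type samples. Its difference was -0.30 ± 0.16, and -0.13 without wild-type replicate 2. Of the 16 dim complement genes, 6 were highest in that array (C9, Cfi, C4bp, Mbl1, Hc and C8b), while 9.82% of all genes within the olfactory receptor range were. Without it the dim genes split into 7 positive and 9 negative, with a median of -0.03, and without wild-type replicate 3 they did so with a median of -0.02.

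Most of these plasma components are made chiefly by the liver, and hepatocyte markers were high in the same array. The mean of 14 hepatocyte genes was 6.32, 6.02 and 5.82 in 5XFAD samples, against 5.91, 7.15 and 6.26 in wild-type samples. Wild-type replicate 2 was the highest array for 12 of the 14. Alb, encoding serum albumin, was at 8.70, 7.28 and 5.80 in 5XFAD samples, against 6.77, 9.65 and 7.93 in wild-type samples. Of the 14 genes 8 lay above the olfactory receptor range, and Fga, Fgb, Ambp, Tat, Apob and Serpina1a within it. Ttr, among those above it, is also in the RPE list and was highest in wild-type replicate 3. Its signal was 13.32, 13.31 and 13.41 in 5XFAD samples, against 13.59, 13.57 and 13.62 in wild-type samples. The part of liver-type RNA in the values of the dim complement genes was not tested beyond leaving out the array.

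**Figure D4:**
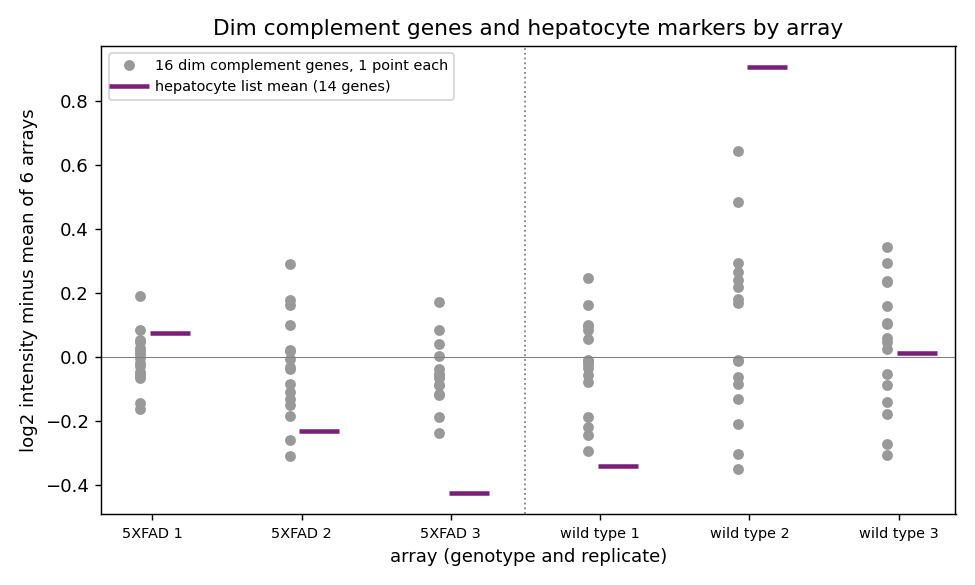
Log2 intensity minus the mean of 6 arrays (vertical axis) for the 16 complement genes within the olfactory receptor range (grey points) and for the mean of 14 hepatocyte genes (bars), in each array (horizontal axis). Wild-type replicate 2 holds the highest hepatocyte mean and the 2 highest points.

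Among the other soluble regulators, Serping1, the C1 inhibitor, had signals of 11.35, 11.34 and 10.89 in 5XFAD samples, against 11.19, 11.07 and 10.98 in wild-type samples. The 5XFAD samples held both the highest and the lowest value, and the difference was 0.11 ± 0.14 (limma, Benjamini-Hochberg adjusted p = 0.96). Vtn, encoding vitronectin, which blocks membrane attack and is a component of deposits beneath the RPE, was at 8.13 ± 0.29 in 5XFAD and 7.88 ± 0.29 in wild type, a difference of 0.26 ± 0.18. That difference was 0.09 without 5XFAD replicate 2, 0.14 without wild-type replicate 3 and 0.42 without wild-type replicate 2. C4bp, the cofactor for C4b breakdown, differed by -0.13 ± 0.11, and Cfhr2, of the factor H related family, by 0.09 ± 0.13 at levels between 2.46 and 2.85 in all arrays.

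All 4 membrane regulators, which protect host cells from convertases or from membrane attack, had a positive difference, with a median of 0.26, and Cr1l had the lowest unadjusted p of the 34 genes. Cr1l encodes Crry, the rodent regulator that acts as a cofactor for C3b and C4b breakdown. Its signal was 8.66, 8.78 and 8.58 in 5XFAD samples, against 8.53, 8.41 and 8.29 in wild-type samples. All 3 5XFAD samples lay above all 3 wild-type samples, with a gap smaller than the spread within either group. The difference was 0.26 ± 0.11, a 1.20-fold level, with an unadjusted p of 0.039 that did not pass (limma, Benjamini-Hochberg adjusted p = 0.76). It was positive under all 19 alternatives, between 0.20 and 0.39, and the unadjusted p was under 0.05 in 10 of them. These alternatives are not separate evidence, because several refit the same values with an unchanged difference of 0.26. Leaving out an array could not turn the sign, since the groups did not overlap in Cr1l. The stretch before its start, chr1:195131571-195131820 on the minus strand of GRCm38.p6 from RefSeq, is shown because Cr1l had that lowest p, and it holds no GAGGAA on either strand.
Cr1l: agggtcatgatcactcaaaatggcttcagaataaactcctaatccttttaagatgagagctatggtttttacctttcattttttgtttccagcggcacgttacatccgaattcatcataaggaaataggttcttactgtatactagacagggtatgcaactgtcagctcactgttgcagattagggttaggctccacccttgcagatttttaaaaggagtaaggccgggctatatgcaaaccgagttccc
Its neighbours in the genome, Cd46, a regulator found in rodents mainly in testis, and Cr2, differed by 0.25 ± 0.21 and -0.04 ± 0.15.

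Cd59a, which encodes the main mouse inhibitor of membrane attack, varied most among the 18 brighter genes, with 1.34 between its highest and lowest array, where the median over those genes was 0.48. Its signal was 8.97, 9.33 and 7.98 in 5XFAD samples, against 8.51, 8.87 and 8.03 in wild-type samples. Replicate 3 was the lowest and replicate 2 the highest in both groups. The difference was 0.29 ± 0.32 (limma, Benjamini-Hochberg adjusted p = 0.95), with an interval from -0.44 to 1.01. It was 0.01 without 5XFAD replicate 2, 0.07 without wild-type replicate 3 and 0.68 without 5XFAD replicate 3. Its near copy Cd59b was at 6.03 ± 0.10 in 5XFAD and 6.03 ± 0.35 in wild type. Cd55, decay-accelerating factor, differed by 0.20 ± 0.13.

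Receptors for complement fragments gave mixed values. C3ar1, the C3a receptor of myeloid cells, had signals of 9.51, 9.20 and 9.06 in 5XFAD samples, against 9.23, 8.91 and 8.89 in wild-type samples. The groups overlapped through wild-type replicate 1, and the difference was 0.25 ± 0.15 (limma, Benjamini-Hochberg adjusted p = 0.89). Leaving out replicate 1 of 5XFAD gave 0.12 and leaving out that of wild type gave 0.36. As covariates, the macrophage list mean gave 0.09 ± 0.14, the skeletal muscle list mean 0.18 ± 0.19 and the surface epithelium list mean 1.11 ± 0.40. The neighbouring C5a receptor genes C5ar1 and C5ar2 differed by -0.12 ± 0.12 and 0.12 ± 0.13, and C5ar2 was highest in 5XFAD replicate 1, at 7.03. Cr2, the receptor for C3 fragments on B cells and follicular dendritic cells, was at 4.35 ± 0.06 in 5XFAD and 4.39 ± 0.32 in wild type, and 6 of 7 B cell markers also lay within the olfactory receptor range. Vsig4, the receptor of resident macrophages for C3 fragments, lay between 3.02 and 3.50 in all arrays and differed by -0.12 ± 0.14.

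Other genes of the pathway were taken from a list of 32, of which 27 were measured. In limma 0 passed after adjustment, where 0.0225% of all genes did, and 1 was under an unadjusted p of 0.05, where 6.28% were. Of the differences 13 were positive and 14 negative, with a median of -0.001, where 47.2% of all genes had a positive one. The groups did not overlap in 5 of them, 4 higher and 1 lower in 5XFAD, where 4.72% of all genes were apart as higher and 6.62% as lower. Of these, 3 encode the subunits of the leukocyte integrins that serve as complement receptors 3 and 4. Itgam was at 7.64, 7.51 and 7.60 in 5XFAD samples, against 7.41, 7.35 and 7.23 in wild-type samples, with all 5XFAD samples higher (0.25 ± 0.10; limma, Benjamini-Hochberg adjusted p = 0.74). Itgax was at 8.14, 8.14 and 8.25 in 5XFAD samples, against 8.07, 7.91 and 7.87 in wild-type samples (0.23 ± 0.10; limma, Benjamini-Hochberg adjusted p = 0.80). Their shared beta subunit gene Itgb2 was at 8.94, 8.67 and 8.75 in 5XFAD samples, against 8.60, 8.49 and 8.67 in wild-type samples (0.20 ± 0.11; limma, Benjamini-Hochberg adjusted p = 0.87). With the macrophage list mean as a covariate the difference was 0.24 for Itgam, 0.26 for Itgax and 0.13 for Itgb2, and none passed in limma. Itgax and Itgb2 were picked out after their values were seen.

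The remaining non-overlapping genes were Calr, encoding calreticulin, a chaperone that binds C1q at the cell surface, and Clu, encoding clusterin, a fluid-phase inhibitor of membrane attack and an Alzheimer's disease risk gene in humans. Calr was at 11.04, 10.82 and 10.83 in 5XFAD samples, against 10.36, 10.79 and 10.74 in wild-type samples, with all 5XFAD samples higher (0.27 ± 0.14; limma, Benjamini-Hochberg adjusted p = 0.85). Clu was at 11.24, 11.16 and 11.18 in 5XFAD samples, against 11.35, 11.42 and 11.29 in wild-type samples. All 3 5XFAD samples were lower, and the difference did not pass (-0.16 ± 0.10; limma, Benjamini-Hochberg adjusted p = 0.90). Colec12, a scavenger receptor with a collectin domain, differed by 0.01.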

How the data were processed

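Per the submitters' processing notes, the authors ran RMA in Affymetrix Expression Console 1.1, and the deposited unit is a log2 intensity for each probe set. Groups and replicate numbers come from the sample titles. Of 33793 probe sets, 23521 had 1 symbol in the platform annotation, and those with several or none were not used to name a gene. For a gene with more than 1 probe set the one of highest mean over 6 arrays was used, giving 22180 genes. Genotypes were tested in limma (version 3.58.1, R 4.3.3; no covariate, 4 residual degrees of freedom, two-sided, Benjamini-Hochberg over all genes). The procedure was tested on simulated data, in 20 simulations with 200 changed genes each. It recovered 0.3% of log2 changes of 0.25, 15.1% of those of 0.5, 75.7% of those of 1 and 97.6% of those of 2. All complement differences were smaller than 0.5, so a count of 0 passing does not show that these genes were unchanged.

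The genes and lists were chosen with earlier results of these data known. All measured members are named. Values per array are given for members whose groups do not overlap or whose unadjusted p is under 0.05, for the brightest of each arm, and, chosen after their values were seen, for C1qa, C1qc, C4b, C9 and Cfi. Of the other pathway genes, those with an unadjusted p under 0.05 and the 3 of highest mean (Clu, Calr and Colec12) are named, with C1rb, C4a and Cd59b as near copies of members and, after their values were seen, Itgax and Itgb2. Other settings tried were replicate number as a blocking factor, filters on dim genes, normalizations, priors, array weights, other handling of probe sets, marker list means as covariates, and each array left out.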

Additional observations from a re-analysis of the deposited data

How the results depend on the processing

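Under all 19 alternatives 0 complement genes passed in limma (lowest Benjamini-Hochberg adjusted p 0.48). The number under an unadjusted p of 0.05, which was 1, was 3 with the replicate number as a block, 0 with median centring, 0 with array weights and 5 with the surface epithelium list mean as a covariate, and 0 to 4 with each array left out. Of the 22180 genes, 640 met that limit as higher and 752 as lower in the main fit. The numbers were 746 and 749 with the block, 521 and 726 with median centring and 779 and 903 with array weights. They were 575 and 397 with the surface epithelium covariate, and 549 to 837 and 586 to 1048 with each array left out. The means of the surface epithelium list did not overlap between the groups, which leaves the covariate close to the genotype. The count over all genes after adjustment, which was 5, was 8 without the dimmest 30% of genes, 9 with median centring, 9 with a trended and robust prior, 8 with array weights and 0 with that covariate. It ran from 3 (without wild-type replicate 3) to 19 (without wild-type replicate 2) with each array left out. The median difference of the complement genes, which was 0.07, was 0.01 without 5XFAD replicate 2, -0.02 with the macrophage covariate and 0.18 with the surface epithelium covariate. These shifts were smaller than the SD between arrays of the median complement signal, 0.15. That SD is larger than the median difference itself, so it cannot show the median to be stable. Of 601 recomputed differences 33 changed sign, in 20 genes, with none passing after adjustment in either direction, and 14 genes kept their sign. Values correlated at 0.98 to 0.99 between arrays. After each gene's group mean was taken off, the deviations of same-numbered 5XFAD and wild-type samples correlated at -0.06, -0.05 and 0.13 for numbers 1, 2 and 3. The deviations of 5XFAD replicate 1 correlated best with wild-type replicate 2 (0.12), and those of 5XFAD replicate 2 with wild-type replicate 1 (0.13). Only those of number 3 correlated best with each other, so the numbers were not taken as pairs. Signals near background limit what the dim genes can show.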
